A study of Homo sapiens with 6 samples.

Results

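The 45 genes described here encode parts of the kinetochore, its spindle checkpoint and the complexes that steer chromosome attachment. They were chosen by name from the 60676 genes of the expression table, each name matched exactly 1 row, and all 45 passed the filter on low counts that left 15510 tested genes. RNA was sequenced from NCI-H226, an established human cell line labelled as mesothelioma of the pleura, in 3 libraries of cells given 500 nM HC278 for 24 h and 3 libraries of cells given the vehicle DMSO for 24 h. All cells grew in serum-supplemented DMEM, and HC278 is named in the title as degrading TEAD, the family of transcription factors at the end of the Hippo pathway. The labels spell the compound in more than one way (HC278, HC31278A, HC-31278), number its libraries 1, 2 and 6 and the DMSO libraries 1, 2 and 3, and leave unstated whether each came from its own culture. The p-values below therefore reflect only library-to-library spread, possibly technical. The comparison asks which of these transcripts changed under the compound.

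The kinetochore is the protein structure on which spindle microtubules pull a chromosome. It is built on nucleosomes that hold CENP-A in place of ordinary histone H3. On these sits the constitutive centromere-associated network (CCAN, the inner kinetochore), then the outer layer of the KNL1, MIS12 and NDC80 complexes, of which NDC80 grips the microtubule. The spindle checkpoint holds anaphase back until every kinetochore is attached, and the chromosomal passenger complex, with the kinase Aurora B, releases wrong attachments. Many of these genes, though not all, are transcribed mainly in G2 and mitosis, so the RNA of those genes is low in resting cells. In bulk RNA, fewer cells in G2 or mitosis and less RNA per cell cannot be told apart.

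Depth was even, from 30486316 to 33181814 counts per library, and CPM values (counts scaled to equal library size) below use TMM-scaled library sizes. HC278 replicate 6 and, less so, DMSO replicate 3 leaned one way along gene length and HC278 replicate 1 the other. Each library was set against the mean of the 3 libraries of its own group. On that scale, the longest of 4 equal length bins of genes had a median log2 difference of 0.36, 0.13 and -0.23 in these 3 libraries. The shortest bin had -0.43, -0.18 and 0.30. Mesothelial markers were present and the 7 together summed to 2765 ± 200.2 TPM with HC278 and 1607 ± 191 TPM with DMSO (SD, n = 3 each). Most of this sum was KRT19, at 2313 ± 199 TPM with HC278 and 1308 ± 175 TPM with DMSO. Of the 6 tested, CALB2 (log2 1.35, edgeR adjusted p = 0.0336) and UPK3B (log2 1.05, edgeR adjusted p = 0.0165) rose and 4 did not pass, with MSLN at log2 0.63, KRT19 at 0.92, WT1 at -0.27 and PDPN at -0.29. KRT5 had at most 1 count in any library. The 5 epithelial or lung markers together had 16, 23 and 21 counts in HC278 libraries 1, 2 and 6, and 3, 5 and 4 counts in DMSO libraries 1, 2 and 3, and NAPSA among them passed as higher (edgeR adjusted p = 0.0295). The 5 leukocyte and endothelial markers together had 35, 32 and 60 counts with HC278 and 25, 15 and 33 counts with DMSO, with CD3E at 0 in all 6 libraries. The part of these markers in the results below was not tested.

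Kinetochore and checkpoint transcripts were lower across nearly the whole set in HC278 cells. Of 45 genes, 28 fell (edgeR quasi-likelihood test, p adjusted by Benjamini and Hochberg over the 15510 genes, threshold 0.05), against a background of 5.38% of tested genes called lower, and 0 rose, against 5.4% called higher. None was higher at an unadjusted p under 0.05 either (background 13.8%), and DESeq2 and limma-voom called 0 higher (background 8.79% and 5.38%). The median log2 fold change was -0.98, against 0.05 over all tested genes, and 44 of 45 had a value below 0, as 45.4% of tested genes did. In 39 genes every HC278 library lay below every DMSO library in CPM, as 17.5% of tested genes did. The sum of the 45 genes' deposited TPM values was 1009 ± 78.4 with HC278 and 1997 ± 147 with DMSO (SD, n = 3 each). The falls of 20 genes reached a log2 value of -1 or lower, as 2.51% of tested genes did, and the furthest were those of CENPK (log2 -1.43), SKA3 (log2 -1.43) and CDCA8 (log2 -1.36). At the threshold, SPC25 and SKA2 were just inside (edgeR adjusted p = 0.0445 and 0.0494) and NSL1 and CENPN just outside (edgeR adjusted p = 0.0505 and 0.0510). How many passed hung on which libraries were used: 19, 8 and 40 after HC278 replicate 1, 2 or 6 was removed and 5, 0 and 6 after DMSO replicate 1, 2 or 3 was removed. The matching backgrounds of tested genes called lower were 2.63%, 0.894% and 20.7% for the HC278 libraries and 0.625%, 0% and 0.928% for the DMSO libraries. In the fit without DMSO replicate 2, by edgeR alone, 34 of the 45 genes still had an unadjusted p under 0.05 and all 34 were lower, against 8.52% of tested genes lower and 9.41% higher at that p. The median stayed between -1.02 and -0.90 in these 6 fits. The shares of tested genes given here are also the backgrounds for the counts per complex below.

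**Figure D1:**
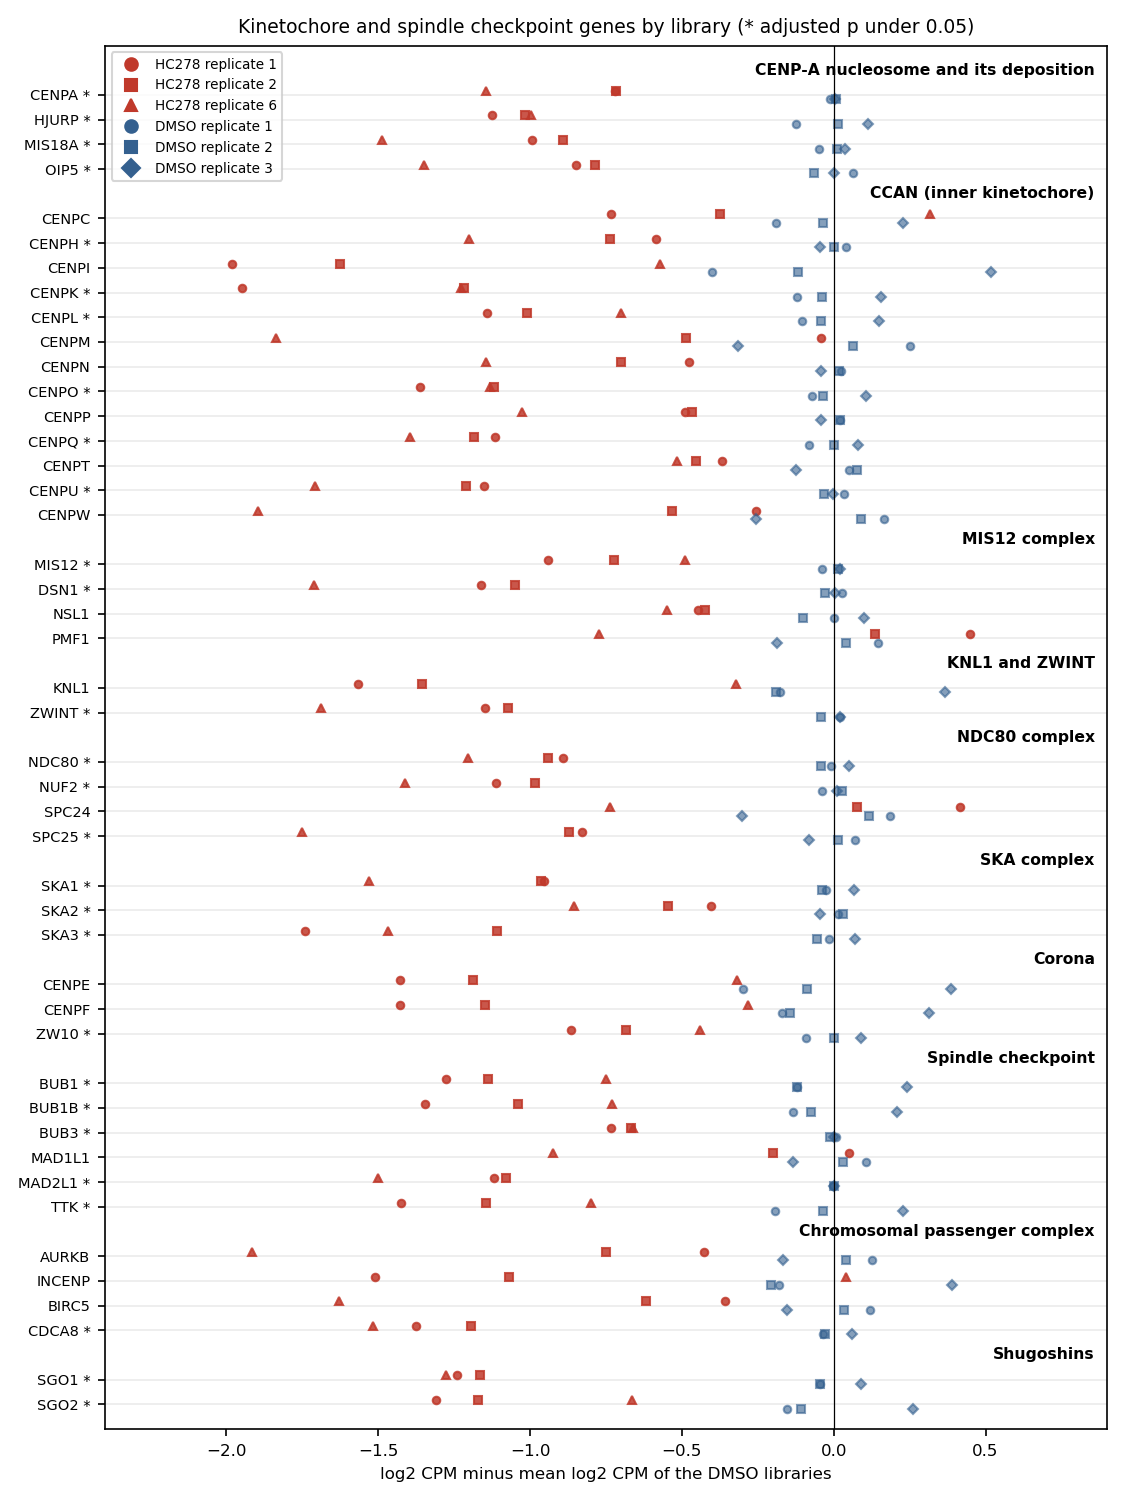
Each row is a gene, grouped by complex, and each point is 1 library's log2 CPM minus the mean of the 3 DMSO libraries (HC278 in red above DMSO in blue; symbols give the replicate; an asterisk marks an adjusted p under 0.05). Red points lie left of all blue points in 39 of 45 rows, and overlap them in CENPC, CENPM, PMF1, SPC24, MAD1L1 and INCENP.

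Promoters of many of these genes hold the same short motifs. Many genes of G2 and mitosis carry a cell cycle homology region (CHR), through which the DREAM complex represses them in resting cells and MYBL2 and FOXM1 activate them later, and often CCAAT boxes, bound by NF-Y, or E2F sites. RefSeq promoters (GRCh38.p14, 250 bases before to 50 after the start) were matched for 37 of the 45 genes and for 10774 tested genes, and letters were searched on both strands. The CHR letters TTTGAA were in 17 of the 37 promoters (45.9%), against 9.6% of tested genes and 17.1% of 648 tested genes called lower, members included. Within 50 bases of the start they were in 14 (37.8%), against 2.64% of tested genes and 10.5% of those called lower, a window chosen after the sites were seen. CCAAT was in 64.9% against 36.6% of tested genes, and the E2F cores TTCCCGC or TTCGCGC in 29.7% against 13.8%. The TEAD core GGAATG was in 6 of 37 promoters (16.2%) against 10.8%. Of the 17 genes with TTTGAA on either strand 13 fell and of the 20 without 10 fell, with median log2 fold changes of -1.05 and -0.92. Other forms of the CHR were not searched, so genes without these letters may hold another form. With an E2F core 10 of 11 fell and without one 13 of 26, with medians of -1.10 and -0.97. With the TEAD core 4 of 6 fell and without it 19 of 31, with medians of -1.04 and -1.01. CENPK and DSN1 fell without the CHR letters (log2 -1.43 and -1.28), and CENPC held them and did not pass (log2 -0.21). The promoters printed below are examples and do not stand for the whole set. A match of letters is a description of the sequence, and binding was not measured here.

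**Figure D2:**
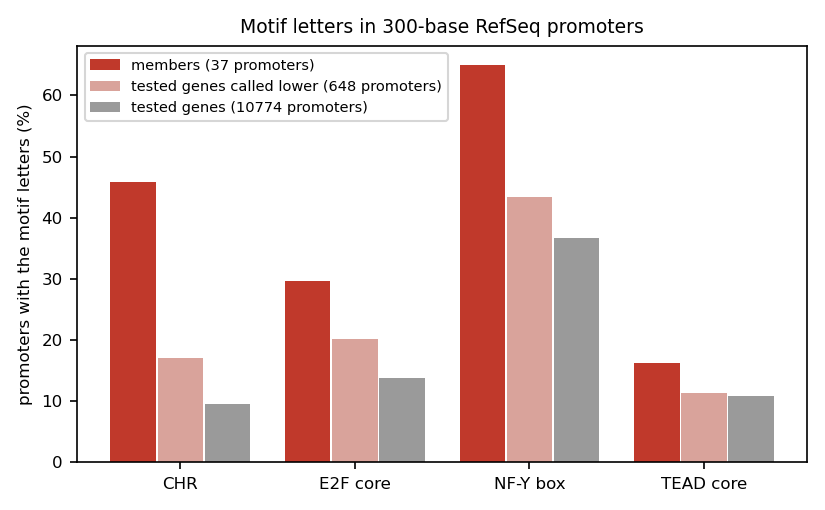
Share of 300-base promoters that hold the letters of each motif, in percent, for the 37 matched kinetochore and checkpoint genes (members), the 648 matched tested genes called lower and all 10774 matched tested genes. The CHR bar (letters TTTGAA only) of the members stands at 45.9%, against 9.6% for all tested genes, and their TEAD core bar at 16.2%, against 10.8%.

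All 4 genes of CENP-A and its deposition fell, by log2 values from -1.11 to -0.85. CENPA, the centromeric histone H3 variant (ENSG00000115163, chromosome 2, 26764289 to 26801067, plus strand), had 19.5, 19.6 and 14.5 CPM in HC278 libraries 1, 2 and 6, and 31.9, 32.4 and 32.3 CPM in DMSO libraries 1, 2 and 3. The DMSO libraries were nearly level and all HC278 libraries lay below them (log2 fold change -0.85, SE 0.15, edgeR adjusted p = 0.0201). HJURP, the chaperone that places CENP-A on DNA (ENSG00000123485, chromosome 2, 233833416 to 233854566, minus strand), had 40.002, 43.2 and 43.8 CPM with HC278 and 80.1, 88.1 and 94.4 CPM with DMSO (log2 fold change -1.05, SE 0.11, edgeR adjusted p = 0.00644). The highest HC278 library was well below the lowest DMSO library. MIS18A, a subunit of the complex that primes centromeres for new CENP-A, had 14.3, 15.3 and 10.1 CPM with HC278 and 27.5, 28.7 and 29.2 CPM with DMSO (log2 fold change -1.11, SE 0.18, edgeR adjusted p = 0.0157). OIP5 of the same complex fell as well (log2 -0.98, edgeR adjusted p = 0.0242). SLC35F6, on the same strand as CENPA and sharing 6.96% of its exonic bases, had 307% of its counts and was at log2 0.15. OIP5-AS1, opposite to OIP5 over 38% of its exonic bases, had 539% of its counts and was at log2 0.00. NUSAP1, also opposite to OIP5 but with no shared exonic bases, had 580% of its counts and fell (log2 -0.98, edgeR adjusted p = 0.0105). Whether reads were assigned by strand is not given in the sources used here. In this group the number called was 3, 1 and 4 after HC278 replicate 1, 2 or 6 was removed and 1, 0 and 1 after DMSO replicate 1, 2 or 3 was removed. The CENPA promoter is printed because it holds the CHR letters 18 bases before the start, an E2F core and a pair of CCAAT boxes in reverse (ATTGG), all in capitals.
CENPA (chr2:26785806-26786105, plus strand): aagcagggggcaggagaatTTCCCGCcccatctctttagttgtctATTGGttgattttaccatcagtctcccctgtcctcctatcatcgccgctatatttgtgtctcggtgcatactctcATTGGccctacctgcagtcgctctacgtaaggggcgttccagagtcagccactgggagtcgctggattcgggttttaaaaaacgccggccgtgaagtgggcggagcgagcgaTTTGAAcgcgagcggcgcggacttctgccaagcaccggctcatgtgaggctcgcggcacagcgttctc

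Of the 13 CCAN genes, which tie CENP-A nucleosomes to the outer kinetochore, 6 fell and 7 did not pass, against 5.38% of tested genes called lower. In 11 every HC278 library lay below every DMSO library, as in 17.5% of tested genes. CENPK (ENSG00000123219, chromosome 5, 65517766 to 65563168, minus strand) had 13.2, 21.96 and 21.8 CPM in HC278 libraries 1, 2 and 6, and 47.1, 49.9 and 57.1 CPM in DMSO libraries 1, 2 and 3 (log2 fold change -1.43, SE 0.22, edgeR adjusted p = 0.0148), the lowest log2 value of the 45 genes. CENPU and CENPQ, partners in the CENP-O subcomplex that recruits the kinase PLK1, had log2 values of -1.34 and -1.24 (edgeR adjusted p = 0.00867 and 0.00644), and CENPO of the same subcomplex -1.21. CENPP, also of this subcomplex, did not pass (log2 -0.64, edgeR adjusted p = 0.0745). Its own level in TPM was among the lowest of the 45 genes, at 2.54 ± 0.174 TPM with HC278 and 4.24 ± 0.210 TPM with DMSO. CENPH (log2 -0.82) and CENPL (log2 -0.95), of the CENP-HIKM and CENP-LN subcomplexes, fell as well. CENPC, which binds the CENP-A nucleosome and MIS12, had 8.94, 11.5 and 18.6 CPM in HC278 libraries 1, 2 and 6, and 13.1, 14.5 and 17.5 CPM in DMSO libraries 1, 2 and 3. HC278 replicates 1 and 2 lay below all DMSO libraries and HC278 replicate 6 above all of them, and the difference did not pass (log2 fold change -0.21, SE 0.29, edgeR adjusted p = 0.713). Without HC278 replicate 6 it passed as lower (log2 -0.56, edgeR adjusted p = 0.0418), in a fit that called 20.7% of tested genes lower. With all 6 libraries and the trend on gene length removed it did not pass (log2 -0.23, edgeR adjusted p = 0.398). CENPI behaved alike in its spread, with 4.10, 5.26 and 10.99 CPM with HC278 and 12.4, 15.1 and 23.5 CPM with DMSO, but without overlap (log2 -1.32, edgeR adjusted p = 0.110). It passed without HC278 replicate 6 (log2 -1.86, edgeR adjusted p = 0.00622), but not with the length trend removed (log2 -1.31, edgeR adjusted p = 0.0828). In deposited TPM the groups of CENPI did overlap, with 2.38, 3.44 and 10.1 TPM with HC278 and 8.71, 10.9 and 18.9 TPM with DMSO. CENPM, a short gene, had the opposite order of HC278 libraries, with 22.3, 16.4 and 6.40 CPM with HC278 and 27.4, 24.04 and 18.5 CPM with DMSO. HC278 replicate 1 lay within the DMSO range and HC278 replicate 6 far below it (log2 -0.63, edgeR adjusted p = 0.425). In deposited TPM its groups did not overlap, with 31.98, 26.5 and 14.6 TPM with HC278 and 47.5, 42.8 and 36.8 TPM with DMSO. CENPW, the histone-fold partner of CENPT, had 19.2, 15.9 and 6.14 CPM with HC278 and 25.8, 24.5 and 19.3 CPM with DMSO (log2 -0.75, edgeR adjusted p = 0.302). Its groups nearly met, at 19.247 CPM in HC278 replicate 1 and 19.263 CPM in DMSO replicate 3. CENPW passed with all 6 libraries and the length trend removed (log2 -1.04, edgeR adjusted p = 0.0225). Without HC278 replicate 6 it did not (log2 -0.40, edgeR adjusted p = 0.0803). CENPT itself (log2 -0.45, edgeR adjusted p = 0.0552) and CENPN (log2 -0.75, edgeR adjusted p = 0.0510) missed the threshold narrowly. They passed without HC278 replicate 6 (log2 -0.42, edgeR adjusted p = 0.0204 and log2 -0.59, edgeR adjusted p = 0.00675). With the length trend removed, CENPN passed (log2 -0.77, edgeR adjusted p = 0.0163) and CENPT did not (log2 -0.43, edgeR adjusted p = 0.0688). CCAN genes called numbered 6, 2 and 11 after HC278 replicate 1, 2 or 6 was removed and 2, 0 and 2 after DMSO replicate 1, 2 or 3 was removed. CENPT, CENPP, CENPN, CENPO, CENPU and CENPL are overlapped on the opposite strand by genes with between 23.8% and 686% of their counts, among them ADCY3 over 27% of the exonic bases of CENPO (log2 -0.69), IPPK over 38% of those of CENPP (log2 -0.47), PRIMPOL over 11.7% of those of CENPU (log2 -0.62) and NUTF2 over 1.99% of those of CENPT (log2 0.00).

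In the NDC80 complex, a rod of 4 subunits in equal number, 3 fell and SPC24 did not pass. NDC80 (ENSG00000080986, chromosome 18, 2571557 to 2616635, plus strand), which binds the microtubule, had 42.00, 40.6 and 33.8 CPM in HC278 libraries 1, 2 and 6, and 77.4, 75.8 and 80.7 CPM in DMSO libraries 1, 2 and 3 (log2 fold change -1.01, SE 0.12, edgeR adjusted p = 0.00792). NUF2, its partner in the microtubule-binding end, had 20.1, 21.9 and 16.3 CPM with HC278 and 42.2, 44.3 and 43.7 CPM with DMSO (log2 fold change -1.16, SE 0.14, edgeR adjusted p = 0.00774). SPC25 of the end that faces the chromosome had 19.1, 18.5 and 10.1 CPM with HC278 and 35.7, 34.3 and 32.1 CPM with DMSO (log2 fold change -1.10, SE 0.25, edgeR adjusted p = 0.0445). All 3 genes had every HC278 library below every DMSO library. SPC24 (ENSG00000161888, chromosome 19, 11131520 to 11155808, minus strand), which pairs with SPC25, had 33.02, 26.1 and 14.8 CPM in HC278 libraries 1, 2 and 6, and 28.2, 26.9 and 20.1 CPM in DMSO libraries 1, 2 and 3. Its groups overlapped, HC278 replicate 1 was the highest of all 6 libraries and HC278 replicate 6 the lowest (log2 fold change -0.02, SE 0.31, edgeR adjusted p = 0.975). Its log2 value lay between -0.29 and 0.24 under the 16 other settings, positive in 6 of them, and did not pass in any. Per length, SPC24 was at 25.3 ± 4.18 TPM with HC278 and 28.1 ± 3.01 TPM with DMSO, and SPC25 at 25.6 ± 3.39 TPM with HC278 and 59.6 ± 1.40 TPM with DMSO (SD, n = 3 each). The ratio of SPC24 to SPC25 in TPM, which does not depend on how libraries are scaled, was 1.11, 0.907 and 0.951 in HC278 libraries 1, 2 and 6, and 0.509, 0.504 and 0.402 in DMSO libraries 1, 2 and 3, and that of SPC24 to NDC80 was 0.984, 0.806 and 0.551 in HC278 libraries 1, 2 and 6, and 0.456, 0.444 and 0.311 in DMSO libraries 1, 2 and 3. Both ratios were higher in every HC278 library than in any DMSO library. Subunits called numbered 2, 1 and 3 after HC278 replicate 1, 2 or 6 was removed and 0 after any 1 of the DMSO libraries was removed. The 4 promoters are shown because 3 hold the CHR letters (TTTGAA, or TTCAAA in reverse) within 50 bases of the start and that of SPC24 holds none in this window, but has CCAAT boxes. Capitals mark CHR letters, CCAAT or ATTGG, the E2F core GCGGGAA in SPC25 and the TEAD core GGAATG in NUF2.
NDC80 (chr18:2571307-2571606, plus strand): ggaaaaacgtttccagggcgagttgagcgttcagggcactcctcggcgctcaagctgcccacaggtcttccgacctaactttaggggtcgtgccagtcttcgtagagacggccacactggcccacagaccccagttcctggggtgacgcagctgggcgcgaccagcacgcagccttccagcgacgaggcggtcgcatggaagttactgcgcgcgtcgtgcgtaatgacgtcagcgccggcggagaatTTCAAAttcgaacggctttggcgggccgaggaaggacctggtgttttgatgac
NUF2 (chr1:163321704-163322003, plus strand): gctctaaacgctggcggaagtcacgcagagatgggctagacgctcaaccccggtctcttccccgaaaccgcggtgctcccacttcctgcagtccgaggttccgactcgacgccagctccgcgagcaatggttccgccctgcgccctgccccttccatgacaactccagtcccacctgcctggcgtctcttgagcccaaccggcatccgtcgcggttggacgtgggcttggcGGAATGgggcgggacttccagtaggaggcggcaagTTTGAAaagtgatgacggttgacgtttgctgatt
SPC25 (chr2:168890381-168890680, minus strand): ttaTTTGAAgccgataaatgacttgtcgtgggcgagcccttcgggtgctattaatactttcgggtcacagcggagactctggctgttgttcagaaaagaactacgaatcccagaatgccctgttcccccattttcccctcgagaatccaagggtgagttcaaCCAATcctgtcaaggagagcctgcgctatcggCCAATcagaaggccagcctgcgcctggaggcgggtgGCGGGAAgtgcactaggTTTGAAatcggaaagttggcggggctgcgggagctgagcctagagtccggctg
SPC24 (chr19:11155733-11156032, minus strand): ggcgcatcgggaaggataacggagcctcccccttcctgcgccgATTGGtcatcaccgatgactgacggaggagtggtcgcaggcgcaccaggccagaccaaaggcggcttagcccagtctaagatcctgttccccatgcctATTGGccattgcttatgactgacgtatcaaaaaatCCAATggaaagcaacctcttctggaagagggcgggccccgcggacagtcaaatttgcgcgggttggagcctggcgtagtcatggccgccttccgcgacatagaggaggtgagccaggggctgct

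**Figure D3:**
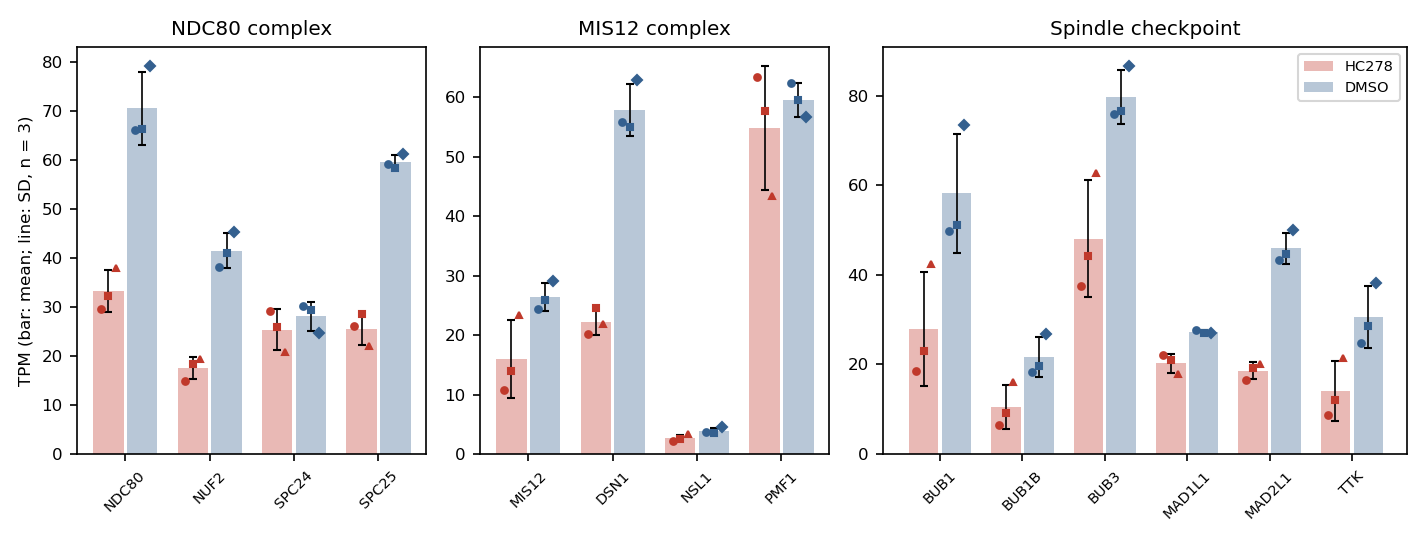
Deposited TPM of each subunit, with HC278 (red) left of DMSO (blue); bars are means, lines SD over 3 libraries and points the libraries. SPC24 and PMF1 have bars close to their DMSO bars, at 25.3 and 54.8 TPM with HC278 and 28.1 and 59.5 TPM with DMSO. MAD1L1 stands at 20.3 TPM with HC278 and 27.2 TPM with DMSO, while NDC80, DSN1 and MAD2L1 stand at 33.3, 22.2 and 18.6 TPM with HC278 and 70.5, 57.9 and 45.99 TPM with DMSO.

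The MIS12 complex, which joins the inner to the outer kinetochore, was as uneven. DSN1, which Aurora B phosphorylates to open the complex for CENPC, had 22.1, 23.8 and 15.1 CPM in HC278 libraries 1, 2 and 6, and 50.3, 48.4 and 49.5 CPM in DMSO libraries 1, 2 and 3 (log2 fold change -1.28, SE 0.19, edgeR adjusted p = 0.0126). MIS12 had 13.5, 15.7 and 18.5 CPM with HC278 and 25.3, 26.2 and 26.4 CPM with DMSO (log2 fold change -0.71, SE 0.14, edgeR adjusted p = 0.0308). DERL2, which runs opposite to it over 9.53% of its exonic bases, had 257% of its counts and a log2 value of -0.06. NSL1 had 12.3, 12.5 and 11.5 CPM with HC278 and 16.8, 15.6 and 17.99 CPM with DMSO (log2 fold change -0.48, SE 0.12, edgeR adjusted p = 0.0505). In these 3 genes the groups did not overlap, and NSL1 passed without HC278 replicate 6 (log2 -0.44, edgeR adjusted p = 0.0198). With all 6 libraries and the length trend removed, NSL1 did not pass (log2 -0.44, edgeR adjusted p = 0.235). PMF1 (ENSG00000160783, chromosome 1, 156212993 to 156240042, plus strand), the partner of MIS12 within the complex, had 63.8, 51.4 and 27.4 CPM in HC278 libraries 1, 2 and 6, and 51.8, 48.1 and 41.1 CPM in DMSO libraries 1, 2 and 3. Its highest and its lowest library both were HC278 libraries (log2 fold change 0.02, SE 0.31, edgeR adjusted p = 0.982), and its log2 value lay between -0.26 and 0.29 under the 16 other settings, negative in 7 of them, without passing. PMF1 to DSN1 in TPM was 3.15, 2.35 and 1.98 in HC278 libraries 1, 2 and 6, and 1.12, 1.08 and 0.902 in DMSO libraries 1, 2 and 3, higher in every HC278 library. By mean TPM, PMF1 had rank 4 of the 45 genes with HC278 and rank 11 with DMSO, and SPC24 rank 16 with HC278 and rank 26 with DMSO. MIS12 subunits called numbered 1, 0 and 3 after HC278 replicate 1, 2 or 6 was removed and 0 after any 1 of the DMSO libraries was removed. The promoter of DSN1, which fell, holds none of the motif letters searched. The PMF1 promoter is shown as the gene with the log2 value nearest to 0: it holds 3 CCAAT boxes, in capitals, and neither the CHR letters nor an E2F core.
PMF1 (chr1:156212757-156213056, plus strand): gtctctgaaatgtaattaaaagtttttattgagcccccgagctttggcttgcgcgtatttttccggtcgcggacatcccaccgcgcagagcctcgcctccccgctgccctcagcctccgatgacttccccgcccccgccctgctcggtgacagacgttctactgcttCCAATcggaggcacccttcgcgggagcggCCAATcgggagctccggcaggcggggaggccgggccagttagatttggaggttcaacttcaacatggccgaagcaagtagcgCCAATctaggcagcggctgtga

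KNL1 and ZWINT form the arm of the outer kinetochore on which checkpoint proteins gather. ZWINT (ENSG00000122952, chromosome 10, 56357227 to 56361273, minus strand), the most abundant of the 45 genes per length with DMSO and next to BIRC5 with HC278, was at 63.9 ± 5.51 TPM with HC278 and 166 ± 14.4 TPM with DMSO (SD, n = 3 each). It had 55.4, 58.4 and 38.1 CPM in HC278 libraries 1, 2 and 6, and 125, 119 and 125 CPM in DMSO libraries 1, 2 and 3, and the groups were far apart (log2 fold change -1.28, SE 0.18, edgeR adjusted p = 0.0115). KNL1, the scaffold, had 4.84, 5.61 and 11.5 CPM with HC278 and 12.8, 12.7 and 18.6 CPM with DMSO. HC278 replicate 6 came close to the lowest DMSO library and the difference did not pass (log2 fold change -1.0, SE 0.37, edgeR adjusted p = 0.145). KNL1 passed without HC278 replicate 6 (log2 -1.49, edgeR adjusted p = 0.00415) and, with all 6 libraries, with the length trend removed (log2 -1.05, edgeR adjusted p = 0.0205). In deposited TPM its groups did overlap, with 1.18, 1.55 and 4.49 TPM with HC278 and 3.78, 3.84 and 6.33 TPM with DMSO. The SKA complex, which helps NDC80 stay on a shrinking microtubule, fell in all 3 subunits. SKA3 had 3.33, 5.20 and 4.03 CPM with HC278 and 11.1, 10.8 and 11.8 CPM with DMSO (log2 -1.43, edgeR adjusted p = 0.00993), and SKA1 was at log2 -1.13. SKA2 had 68.8, 62.3 and 50.3 CPM with HC278 and 91.9, 93.04 and 88.2 CPM with DMSO (log2 -0.59, edgeR adjusted p = 0.0494), and none of the 3 overlapped between groups. SKA2 was the most abundant SKA gene per length, at 56.6 ± 4.76 TPM with HC278 and 90.3 ± 4.37 TPM with DMSO, and its TPM ratio to SKA1 was 6.31, 5.74 and 6.89 in HC278 libraries 1, 2 and 6, and 4.41, 4.51 and 3.97 in DMSO libraries 1, 2 and 3, higher in every HC278 library. SKA genes called numbered 2, 1 and 3 after HC278 replicate 1, 2 or 6 was removed and 0 after any 1 of the DMSO libraries was removed, and of KNL1 and ZWINT 1, 0 and 2 after HC278 replicate 1, 2 or 6 was removed and 0 after any 1 of the DMSO libraries was removed.

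Of the 3 genes of the corona, the outermost layer that captures microtubules, ZW10 fell. ZW10, which brings dynein and checkpoint proteins to kinetochores, had 16.5, 18.7 and 22.2 CPM with HC278 and 28.2, 30.1 and 32.1 CPM with DMSO (log2 fold change -0.66, SE 0.14, edgeR adjusted p = 0.0386). CENPE, the kinesin that carries chromosomes to the middle of the spindle, had 17.1, 20.3 and 37.03 CPM with HC278 and 37.6, 43.5 and 60.4 CPM with DMSO (log2 -0.93, edgeR adjusted p = 0.141). CENPF, a large protein of G2 and mitosis, had 34.5, 41.9 and 76.4 CPM with HC278 and 82.6, 84.2 and 116 CPM with DMSO (log2 -0.89, edgeR adjusted p = 0.144). In both of these long genes HC278 replicate 6 was well above the other HC278 libraries and DMSO replicate 3 above the other DMSO libraries, without overlap of the groups in CPM. Both passed without HC278 replicate 6 (log2 -1.34, edgeR adjusted p = 0.00618 for CENPE; log2 -1.30, edgeR adjusted p = 0.00385 for CENPF) and, with all 6 libraries, with the trend on gene length removed (edgeR adjusted p = 0.0184 and 0.0115). ZW10 did not pass with that trend removed (log2 -0.69, edgeR adjusted p = 0.0602). In deposited TPM the groups of all 3 genes did overlap. HC278 replicate 6 had 14.9, 26.1 and 30.3 TPM in CENPE, CENPF and ZW10, and DMSO replicate 1 had 11.5, 21.5 and 29.4 TPM. Corona genes called numbered 0, 0 and 3 after HC278 replicate 1, 2 or 6 was removed and 0 after any 1 of the DMSO libraries was removed.

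Of 6 spindle checkpoint genes 5 fell, and 2 of them (BUB3 and MAD2L1) with library size alone as the scaling. BUB1 (ENSG00000169679, chromosome 2, 110637528 to 110678063, minus strand), the kinase that marks centromeric chromatin and docks the checkpoint on KNL1, had 46.5, 51.2 and 66.9 CPM in HC278 libraries 1, 2 and 6, and 104, 104 and 133 CPM in DMSO libraries 1, 2 and 3 (log2 fold change -1.05, SE 0.19, edgeR adjusted p = 0.0217). BUB1B, which encodes BUBR1 of the mitotic checkpoint complex, had 11.7, 14.5 and 17.9 CPM with HC278 and 27.2, 28.3 and 34.5 CPM with DMSO (log2 fold change -1.03, SE 0.19, edgeR adjusted p = 0.0251). In both, HC278 replicate 6 was the highest HC278 library and DMSO replicate 3 the highest DMSO library, and the groups did not overlap. BUB1B shares its gene region on the same strand with PAK6, which had 12.2% of its counts and rose (log2 3.33), with no shared exonic bases. BUB3, which carries BUB1 and BUBR1 and also serves outside mitosis, had 122, 128 and 128 CPM with HC278 and 204, 201 and 203 CPM with DMSO (log2 fold change -0.69, SE 0.10, edgeR adjusted p = 0.0117). Its libraries were tight in each group and its log2 value was the one nearest to 0 among the 5 that fell. MAD2L1 (ENSG00000164109, chromosome 4, 120055623 to 120066858, minus strand), encoding MAD2, which inhibits CDC20, had 36.4, 37.4 and 27.9 CPM in HC278 libraries 1, 2 and 6, and 78.8, 79.2 and 79.1 CPM in DMSO libraries 1, 2 and 3 (log2 fold change -1.22, SE 0.14, edgeR adjusted p = 0.00725). TTK, the kinase MPS1 that starts checkpoint signalling, had 15.95, 19.4 and 24.7 CPM with HC278 and 37.5, 41.9 and 50.3 CPM with DMSO (log2 fold change -1.11, SE 0.20, edgeR adjusted p = 0.0225). MAD1L1, encoding MAD1, the partner on which MAD2 is converted to its active form, had 63.6, 53.5 and 32.4 CPM in HC278 libraries 1, 2 and 6, and 66.1, 62.7 and 55.96 CPM in DMSO libraries 1, 2 and 3. HC278 replicate 1 lay within the DMSO range and HC278 replicate 6 below it, and the difference did not pass (log2 fold change -0.31, SE 0.25, edgeR adjusted p = 0.506) nor did it under any of 16 other settings (log2 -0.53 to -0.08). In deposited TPM, however, its groups did not overlap, with 22.1, 20.9 and 17.9 TPM with HC278 and 27.8, 27.01 and 26.9 TPM with DMSO. MAD1L1 to MAD2L1 in TPM was 1.33, 1.09 and 0.885 in HC278 libraries 1, 2 and 6, and 0.640, 0.605 and 0.540 in DMSO libraries 1, 2 and 3, higher in every HC278 library. Of 13 such ratios between partners, 6 were higher in every HC278 library, 1 was lower (NUF2 to NDC80) and 6 overlapped. They were chosen after the values were seen and carry no test. Checkpoint genes called numbered 2, 1 and 5 after HC278 replicate 1, 2 or 6 was removed and 0, 0 and 1 after DMSO replicate 1, 2 or 3 was removed. The MAD2L1 promoter is shown for its CHR letters 25 bases after the start and the E2F core GCGCGAA 105 bases before it. ATTGG is also in capitals.
MAD2L1 (chr4:120066799-120067098, minus strand): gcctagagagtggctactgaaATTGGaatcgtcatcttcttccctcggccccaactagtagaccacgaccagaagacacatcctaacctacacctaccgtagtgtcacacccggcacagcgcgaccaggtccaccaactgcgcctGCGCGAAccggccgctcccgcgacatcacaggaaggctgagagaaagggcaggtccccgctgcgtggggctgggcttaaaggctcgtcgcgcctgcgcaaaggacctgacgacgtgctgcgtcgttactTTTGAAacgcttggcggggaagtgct

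Of the 4 genes of the chromosomal passenger complex, CDCA8 fell and 3 did not pass. CDCA8 (ENSG00000134690, chromosome 1, 37692481 to 37709719, plus strand), encoding borealin, which binds survivin and the centromere, had 34.1, 38.7 and 30.9 CPM in HC278 libraries 1, 2 and 6, and 86.5, 86.9 and 92.4 CPM in DMSO libraries 1, 2 and 3, with the smallest adjusted p of the 45 genes (log2 fold change -1.36, SE 0.12, edgeR adjusted p = 0.00476). AURKB (ENSG00000178999, chromosome 17, 8204733 to 8210600, minus strand), the kinase Aurora B, had 45.8, 36.5 and 16.3 CPM in HC278 libraries 1, 2 and 6, and 67.1, 63.3 and 54.7 CPM in DMSO libraries 1, 2 and 3 (log2 fold change -0.91, SE 0.36, edgeR adjusted p = 0.175). BIRC5, encoding survivin, had 122, 101 and 50.4 CPM with HC278 and 169, 159.7 and 140.0 CPM with DMSO (log2 fold change -0.78, SE 0.32, edgeR adjusted p = 0.184). In both, HC278 replicate 6 was far below the other HC278 libraries, and the groups did not overlap. INCENP, the scaffold of the complex, had 11.3, 15.3 and 33.03 CPM with HC278 and 28.4, 27.8 and 42.1 CPM with DMSO (log2 fold change -0.72, SE 0.42, edgeR adjusted p = 0.341). HC278 replicate 6 was there the highest HC278 library and lay within the DMSO range. Without HC278 replicate 6 all 3 passed as lower, AURKB at log2 -0.59, edgeR adjusted p = 0.0183, BIRC5 at log2 -0.49, edgeR adjusted p = 0.0231 and INCENP at log2 -1.31, edgeR adjusted p = 0.00835. Passenger genes called numbered 1, 1 and 4 after HC278 replicate 1, 2 or 6 was removed and 1, 0 and 1 after DMSO replicate 1, 2 or 3 was removed. Both shugoshins, which shield centromeric cohesion until anaphase, fell. SGO1 had 7.36, 7.76 and 7.19 CPM with HC278 and 16.96, 16.9 and 18.6 CPM with DMSO (log2 fold change -1.23, SE 0.11, edgeR adjusted p = 0.00486), with SGO1-AS1 on the opposite strand at 61.7% of its counts and log2 0.11. SGO2 had 6.77, 7.45 and 10.6 CPM with HC278 and 15.1, 15.6 and 20.2 CPM with DMSO (log2 fold change -1.04, SE 0.22, edgeR adjusted p = 0.0347), with KCTD18 opposite at 69.7% of its counts and log2 0.10. Shugoshins called numbered 1, 1 and 2 after HC278 replicate 1, 2 or 6 was removed and 1, 0 and 1 after DMSO replicate 1, 2 or 3 was removed.

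HC278 replicate 6 stood apart along gene length in these 45 genes too. HC278 replicate 6 was below the mean of HC278 replicates 1 and 2 in all 15 of the shortest of the 45 genes, with a median difference of -0.58 in log2 CPM, and above it in 10 of the 15 longest, with a median of 0.37. Over the 45 genes, which share these libraries, that difference had a Pearson r of 0.616 and a Spearman rho of 0.633 with log2 gene length. DMSO replicate 3 against DMSO replicates 1 and 2 gave 0.526 and 0.528. CENPM, CENPW, AURKB and BIRC5 were lowest in HC278 replicate 6 relative to the other HC278 libraries, and INCENP, CENPI, KNL1, CENPF and CENPE highest. Length did not order all of them: INCENP, CENPI and BIRC5 were 1.05, 1.02 and 0.90 times the median gene. MAD1L1 (1.71 times) and NSL1 (3.28 times) were long, yet differed by -0.85 and -0.11. The difference of HC278 replicates 1 and 2 from DMSO replicates 1 and 2 had an r of -0.09 with length. Its median was -0.82, -1.04 and -1.09 in the 15 shortest, the 15 middle and the 15 longest genes. With the trend on gene length removed in all 6 libraries, 33 genes were lower, against a background of 9.19%. Without both HC278 replicate 6 and DMSO replicate 3, 40 were lower, against 20.9%. Not called in either of these fits, nor with all 6 libraries, were CENPC, CENPM, PMF1, SPC24 and MAD1L1.

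**Figure D4:**
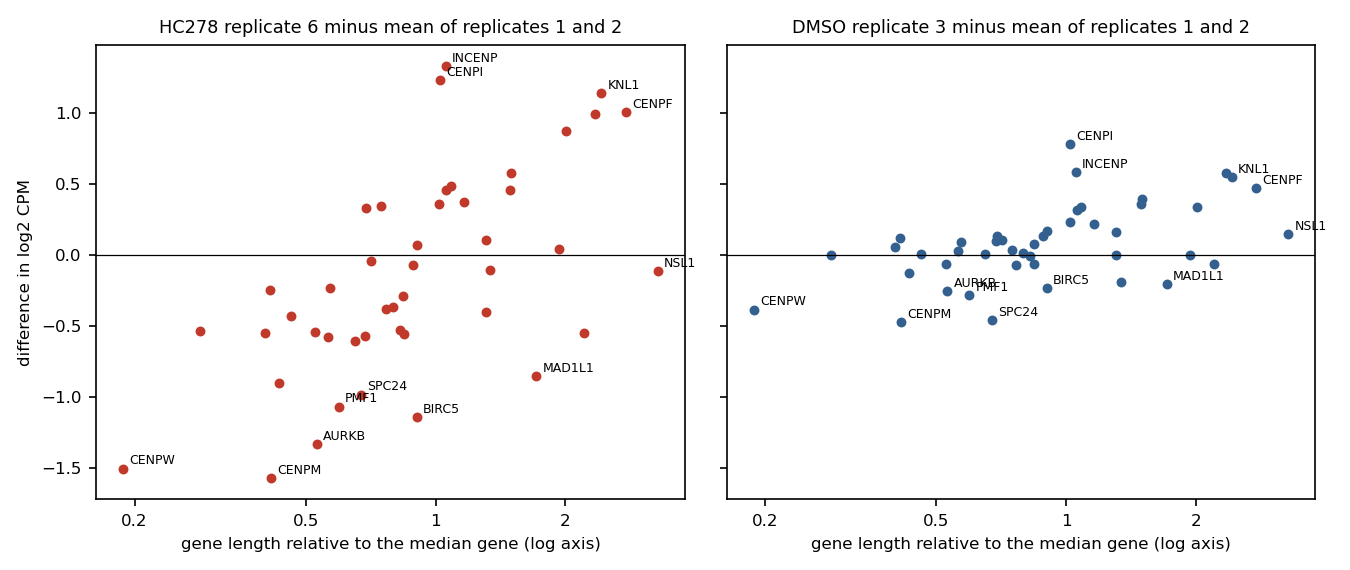
Each point is 1 of the 45 genes; the x axis is gene length relative to the median gene (log axis) and the y axis the difference in log2 CPM of HC278 replicate 6 from HC278 replicates 1 and 2 (left) and of DMSO replicate 3 from DMSO replicates 1 and 2 (right). Points rise with length in both panels, with r of 0.616 and 0.526.

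How the counts were scaled or tested moved the number called less than the choice of libraries did. It was 27 with DESeq2's size factors, 26 with upper quartile factors and 23 with library size alone, against backgrounds of 5.44%, 4.34% and 4.19% of tested genes. DESeq2 called 34 and limma-voom 29, against 9.37% and 5.56%. Without a filter on low counts 26 were lower, and with at least 10 counts in 3 libraries 28, against 2.06% and 5.34%. With library size alone CENPL, MIS12, ZW10, BUB1, BUB1B, TTK and SGO2 no longer passed, nor did ESPL1 and TFDP1 of the lists described next, while CENPN and CENPP did. SKA2 no longer passed with DESeq2's size factors, upper quartile factors or no filter, SPC25 with upper quartile factors and ZW10 with no filter.

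**Figure D5:**
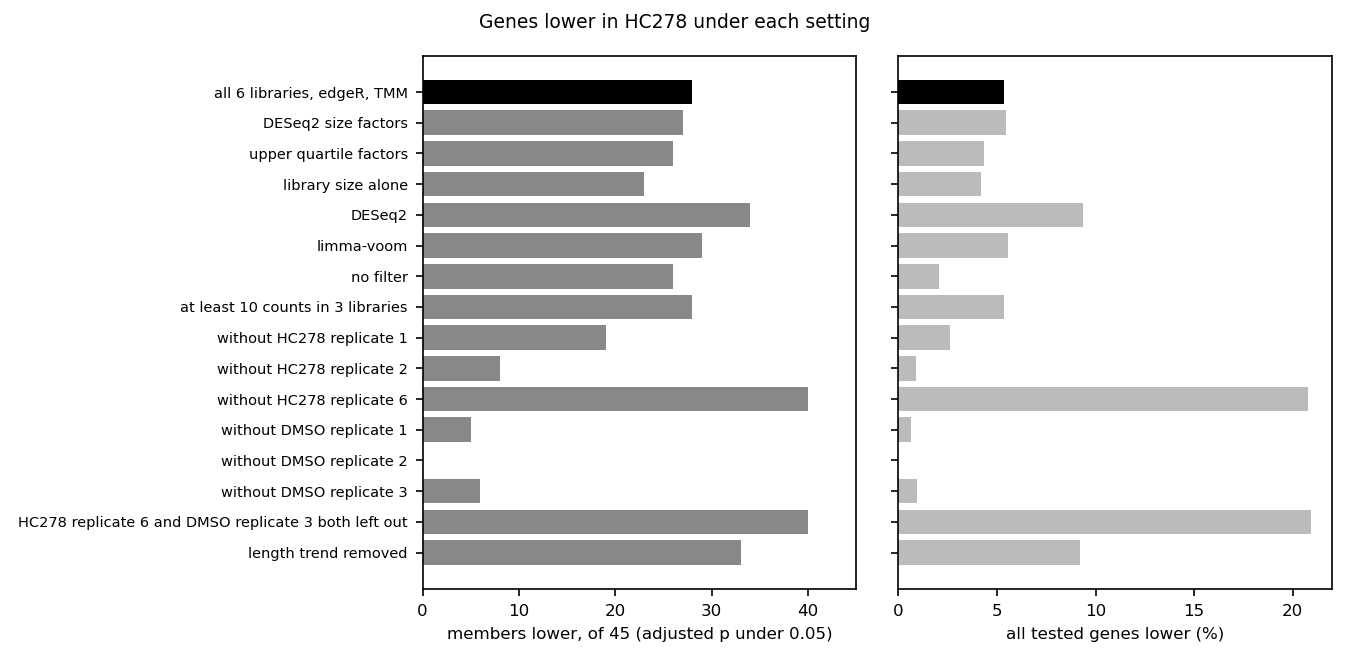
Number of the 45 genes called lower (left) and percent of all tested genes called lower (right) under each setting, with the main setting in black. The left bars run between 0 without DMSO replicate 2 and 40 without HC278 replicate 6, and the right bars between 0% and 20.9%.

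Other kinetochore and corona genes that are not among the 45 were lower too: 9 of 18 fell and 0 rose, with a median log2 fold change of -0.93. At an unadjusted p under 0.05, 12 were lower and 0 higher, against backgrounds of 12.8% and 13.8%, and DESeq2 called 12 lower and 0 higher, against 9.37% and 8.79%. TRIP13, the ATPase that takes the checkpoint complex apart, had 32.2, 35.5 and 28.1 CPM with HC278 and 73.2, 71.2 and 78.97 CPM with DMSO (log2 fold change -1.22, SE 0.13, edgeR adjusted p = 0.00606). SPAG5 (log2 -0.98), KNSTRN (log2 -1.06) and the kinesin KIF18A (log2 -1.14), all of which act where microtubules meet kinetochores, fell as well. The checkpoint's target, the anaphase-promoting complex (APC/C), was listed with separase, securin and its E2 enzymes. Of these 19 genes 1 fell and 0 rose, with a median of -0.15. That share of falls is near the 5.38% of all tested genes, and the 3 lower at an unadjusted p under 0.05 (0 higher) are near the 12.8%. DESeq2 called 2 lower and 0 higher. ESPL1, encoding separase, which cuts cohesin, had 11.8, 16.1 and 19.3 CPM with HC278 and 30.7, 30.9 and 37.8 CPM with DMSO (log2 fold change -1.07, SE 0.21, edgeR adjusted p = 0.0270). Without HC278 replicate 6, 5 of the 19 were lower and 2 higher, against backgrounds of 20.7% and 19.8%. UBE2C (log2 -0.97, edgeR adjusted p = 0.0919), UBE2S (log2 -0.68, edgeR adjusted p = 0.186) and the core subunit ANAPC7 (log2 -0.23, edgeR adjusted p = 0.209) did not pass. Of 18 regulators of such genes (DREAM, MYB, FOXM1 and E2F factors) 6 fell and 0 rose, with a median of -0.68. Of these, 12 were lower and 0 higher at an unadjusted p under 0.05, and DESeq2 called 10 lower and 0 higher, beside the same backgrounds as for the kinetochore list. FOXM1, which activates G2 and mitotic genes, had 113, 109 and 82.2 CPM with HC278 and 192, 189 and 195 CPM with DMSO (log2 fold change -0.92, SE 0.15, edgeR adjusted p = 0.0164), with RHNO1 on the opposite strand at 30.1% of its counts and log2 -0.51. MYBL2 had 13.8, 13.8 and 7.57 CPM with HC278 and 29.7, 29.2 and 26.7 CPM with DMSO (log2 fold change -1.28, SE 0.25, edgeR adjusted p = 0.0276). E2F2 (log2 -1.61) and TFDP1 (log2 -0.73) fell as well. Differences between these lists and the 45 genes were not tested. The numbers called lower were 7, 1 and 13 after HC278 replicate 1, 2 or 6 was removed and 0, 0 and 1 after DMSO replicate 1, 2 or 3 was removed for the other kinetochore and corona genes. For the APC/C list they were 1, 0 and 5 after HC278 replicate 1, 2 or 6 was removed and 0 after any 1 of the DMSO libraries was removed. For the regulators they were 2, 1 and 13 after HC278 replicate 1, 2 or 6 was removed and 0 after any 1 of the DMSO libraries was removed.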

How the data were processed

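Stranded mRNA libraries (Illumina Stranded mRNA prep, per the labels' protocols) from 3 HC278 and 3 DMSO samples of NCI-H226 were analysed. The deposited table gives, per gene and library, raw read counts, RPKM, TPM and a signal (counts scaled to an adjusted library size), all made by the authors on hg38, per the submitters' processing notes and the file headers. The deposited TPM values sum to 1e+06 in each library, and the scaled signal columns were not tested. For the aligner, annotation release and strand setting, nothing is given in the sources used here.

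Counts were fitted with edgeR 4.0.16 (R 4.3.3), TMM factors, filterByExpr with a minimum count of 10 and the quasi-likelihood test, adjusted over all 15510 tested genes. The script was tested on simulated counts. Each standard error is the size of the log2 fold change over the root of its F statistic, and the biological coefficient of variation was 26%. No pair of libraries of a group agreed within sampling noise (chi-square per degree of freedom 4.02 to 313). A count of 3 is 0.0877 to 0.105 CPM. Alternatives were DESeq2 1.42.0, voom of limma 3.58.1, 3 other scalings, another filter and none, each library left out, HC278 replicate 6 and DMSO replicate 3 both left out, a replicate block, and a loess trend (span 0.5) on gene length removed, with length taken from the ratio of counts to RPKM.

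Members and lists were chosen with earlier results of these data known. Values per library are given for the members of each complex with the smallest and largest log2 fold change and for all of the checkpoint, passenger and NDC80 complexes, and in other lists the genes with the smallest adjusted p are named. Values of others were chosen for print after they were seen. Genes overlapping a member were considered from 10% of its counts up. Some overlapping genes and markers are not reported here. Promoters are RefSeq's (GRCh38.p14), from 250 bases before to 50 after the start.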

Additional observations from a re-analysis of the deposited data

How the results depend on the processing

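Of the 45 genes, between 0 and 40 were lower when 1 library was left out, with the lowest count without DMSO replicate 2 and the highest without HC278 replicate 6, and 0 were higher under every setting run. Over all tested genes, leaving out 1 library gave between 0 and 3280 lower and between 0 and 3133 higher, against 835 and 837 with all 6. DESeq2 called 1454 lower and 1364 higher, and 553 were higher with no filter. Removing the length trend gave 1426 lower and 1264 higher, and leaving out both HC278 replicate 6 and DMSO replicate 3 gave 3274 and 3048. The groups share replicate numbers 1 and 2 only. Same-numbered libraries deviated together with correlations of 0.517 and 0.183, but no label ties these 2 pairs, so they were not treated as paired. With the replicate block, 42 members, 4218 lower and 3954 higher genes passed on 1 residual degree of freedom. PMF1 (log2 0.02) changed sign without passing, to -0.036 with library size alone, -0.066 with limma-voom, -0.018 with no filter and -0.093 with the length trend removed, and lay between -0.26 and 0.29 when 1 library was left out. SPC24 (log2 -0.02) did likewise, at 0.051 with upper quartile factors, 0.10 with the block, 0.10 without both libraries, and between -0.29 and 0.24 when 1 was left out. The cause was not tested. With 3 libraries a group, a difference such as that of MAD1L1 (log2 -0.31, SE 0.25) did not exceed the spread.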
